A study of Mus musculus with 12 samples.

Results

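The genes described here encode the nuclear subunits of the oxidative phosphorylation machinery in 4T1 cells, a mouse mammary carcinoma line. They were taken as the protein-coding rows of the expression table whose names follow the patterns of the Nduf, Sdh, Uqcr, Cox4 to Cox8 and Atp5 families, which gave 83 of 29937 genes. By complex there were 38 genes of complex I, 4 of complex II, 8 of complex III, 16 of complex IV and 17 of complex V. The RNA-seq data (poly(A) selected) comprise 12 libraries of wild-type, adherent 4T1 cells, 3 in each of the groups OAP2, Oxa, APAP and PBS, the groups being named after the agent in their titles. The PBS controls carry DMSO as their treatment label and stand in columns headed CON, which were matched to them by inference as the group without a drug. No dose or time of treatment is stated in the labels, the design text speaks of cell-derived xenografts while the labels describe cultured cells, and nothing says whether the 3 libraries of a group were separate cultures. The p-values below therefore measure the spread between these libraries, which may be technical.

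Oxidative phosphorylation passes electrons from NADH (through complex I) and from succinate (through complex II) to complex III and then to complex IV, where oxygen is reduced. Complexes I, III and IV pump protons across the inner mitochondrial membrane, and complex V, the ATP synthase, makes ATP from the return flow. Apart from complex II, each complex combines subunits encoded in the nucleus, which are the genes described here, with subunits encoded in mitochondrial DNA. 4T1 cells are used as a model of metastatic breast cancer that retains mitochondrial respiration.

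The promoters of these genes are known for binding sites of NRF1, of the ETS factor GABPA, of YY1 and of SP1. RefSeq windows (GRCm38.p6) running from 250 bases before to 50 after the start were found for 66 of the 83 genes and searched on both strands for the letters GCATGCGC (NRF1), CCGGAAG (ETS), AAGATGGC (YY1) and GGGCGG (SP1). The NRF1 letters occurred in 15.2% of the 66 windows, against 6.5% of the windows of all genes tested below. The YY1 letters occurred in 15.2%, against 5.8%, and the ETS letters in 25.8%, against 22.6%. The SP1 letters occurred in 40.9%, against 71.7%. Over all 27025 windows of the RefSeq table the shares were 3.0% (NRF1), 3.2% (YY1), 9.9% (ETS) and 38.2% (SP1). A match describes letters and not a bound site. Windows are shown for 3 genes on which the results below turn, each 5′ to 3′ along the gene, with matches on either strand in capitals. Cox7a2l (minus strand, chr17:83514284-83514583) differed between OAP2 and Oxa and holds the SP1 letters in 2 places. Sdhd (minus strand, chr9:50603800-50604099) was lower in 2 of the OAP2 libraries and holds the ETS and SP1 letters. Cox6a1 (minus strand, chr5:115348909-115349208) was one of the few genes that did not share the shift of the library OAP2 3, and holds the NRF1 letters on both strands, overlapping each other, with the SP1 and ETS letters.
Cox7a2l: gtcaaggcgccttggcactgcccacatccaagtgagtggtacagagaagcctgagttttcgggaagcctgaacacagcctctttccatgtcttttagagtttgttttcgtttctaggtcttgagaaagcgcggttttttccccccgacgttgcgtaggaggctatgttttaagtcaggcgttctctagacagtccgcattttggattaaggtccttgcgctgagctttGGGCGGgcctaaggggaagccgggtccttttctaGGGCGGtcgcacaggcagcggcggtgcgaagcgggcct
Sdhd: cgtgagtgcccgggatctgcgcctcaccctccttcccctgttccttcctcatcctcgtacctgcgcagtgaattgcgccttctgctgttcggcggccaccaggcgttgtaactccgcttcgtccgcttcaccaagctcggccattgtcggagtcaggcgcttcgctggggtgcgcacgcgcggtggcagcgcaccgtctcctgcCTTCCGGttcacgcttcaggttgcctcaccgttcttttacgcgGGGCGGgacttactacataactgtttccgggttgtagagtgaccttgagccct
Cox6a1: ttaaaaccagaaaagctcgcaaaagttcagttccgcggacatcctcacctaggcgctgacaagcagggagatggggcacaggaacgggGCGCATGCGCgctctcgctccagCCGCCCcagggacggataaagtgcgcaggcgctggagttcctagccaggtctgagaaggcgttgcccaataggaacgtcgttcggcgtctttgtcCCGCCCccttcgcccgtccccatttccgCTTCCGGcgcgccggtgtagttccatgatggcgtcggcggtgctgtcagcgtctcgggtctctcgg

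Total counts lay between 64071751 and 71500487 per library. The 7 epithelial markers averaged between 6.67 and 7.19 on the log2(FPKM + 1) scale in every library, FPKM being fragments per kilobase of transcript, scaled to the mapped fragments of the library. The libraries PBS 2 and OAP2 3 stood apart. In PBS 2 the 7 red blood cell markers averaged 3.69 and the 8 neutrophil markers 2.19, against at most 0.07 and 0.12 in the other 11 libraries, so each comparison with PBS is also given without PBS 2. Within OAP2, the third library differed from the other 2 in the very genes described here, so OAP2 is also given without OAP2 3. Of the 8 macrophage markers, 1 to 3 reached 1 FPKM in a library, with a list mean between 0.48 and 1.41 that was highest in PBS 1. Cd68 lay between 5.74 and 12.81 FPKM in every library. Lyz2 stood at 31.0, 6.23 and 0 FPKM in PBS 1 to 3, and between 4.65 and 9.27 in the treated libraries. Adgre1 reached 1.51 FPKM in PBS 1 and at most 0.42 elsewhere. Csf1r and the C1q genes stayed at or below 0.44 FPKM. The part of this difference among the controls in the results was not tested. The muscle markers averaged at most 0.15. The part of the red blood cell and neutrophil transcripts in the results was not tested beyond leaving PBS 2 out. In bulk libraries such as these, fewer cells of a type and less RNA per cell cannot be told apart.

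The subunit genes were abundant. A gene was tested where its FPKM reached 1 in at least 3 of the 12 libraries, which held for 12036 genes and for 79 of the 83 subunit genes, and 77 of them reached it in all 12. The median level of the tested subunit genes was 24.9 FPKM, against 6.85 for all genes tested. The median was 18.0 FPKM in complex I, 30.1 in complex II, 36.0 in complex III, 37.0 in complex IV and 31.0 in complex V. Atp5b, the catalytic beta subunit of the ATP synthase (complex V), was the most abundant, with 257, 257 and 305 FPKM in OAP2, 276, 280 and 298 in Oxa, 283, 320 and 318 in APAP, and 310, 281 and 327 in PBS. The highest of complex IV was Cox8a, a small subunit, at a mean of 219 FPKM over all libraries, that of complex I was Ndufb9, an accessory subunit, at 140.5, and that of complex III was Uqcrc1, a core subunit, at 74.7. Ndufb9 shares its strand and part of its span with the predicted gene Gm49356, so reads may be divided between them. Against PBS the libraries of each treatment overlapped for these 4 genes, except Ndufb9 and Uqcrc1 in APAP, described below. Among the subunit genes, Ndufb1-ps and Cox5b-ps carry names of pseudogenes, and reads of near-identical copies may be divided between them and their partners.

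Where a complex has alternative subunits, the common form carried the expression. Complex IV used Cox6a1 (mean 191 FPKM) over Cox6a2 (2.58), the form of heart and skeletal muscle. Cox4i1, at 142 FPKM, had a counterpart, the lung and hypoxia form Cox4i2, that was listed at 0 in all 12 libraries. Cox6b1 stood at 49.1 FPKM, with its testis form Cox6b2 at no more than 0.09 in any library, and Cox7a2 at 15.8, with its muscle form Cox7a1 between 0.06 and 0.58. Ndufa4, named for complex I but assigned to complex IV in human cells, averaged 47.9 FPKM, while its hypoxia-induced relative Ndufa4l2 did not exceed 0.15. Cox4i2, Cox6b2, Cox7a1 and Ndufa4l2 are the 4 genes that were not tested. Just inside the filter, with 11 of 12 libraries at 1 FPKM or more, were Cox6a2 and Ndufb2, an accessory subunit of complex I at a mean of 1.30 FPKM. The c ring of the ATP synthase is built from one protein that 3 genes encode, and these stood at 53.4 (Atp5g2), 40.5 (Atp5g3) and 8.70 (Atp5g1) FPKM.

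OAP2 3 held the highest levels of most subunits. Of 79 genes, 77 were higher there than in the mean of OAP2 1 and OAP2 2. The median difference was 0.44 on the scale of log2 CPM (counts scaled to the library total adjusted by TMM factors). Over all genes tested the median was -0.03. For 50 of the 79, OAP2 3 was the highest of all 12 libraries, which it was for 14.2% of all genes tested. Relative to its mean over the 12 libraries, the median subunit gene stood at -0.03, -0.16 and 0.32 in OAP2, 0.00, 0.00 and 0.10 in Oxa, -0.24, -0.08 and -0.07 in APAP, and 0.00, 0.11 and 0.04 in PBS. The OAP2 libraries thus spanned the whole range apart from APAP 1, in which 29 of the 79 had their lowest value, beside 737 of 12036 genes tested. By complex, the value in OAP2 3 was 0.32 for complex I, 0.19 for II, 0.50 for III, 0.39 for IV and 0.30 for V.

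**Figure D1:**
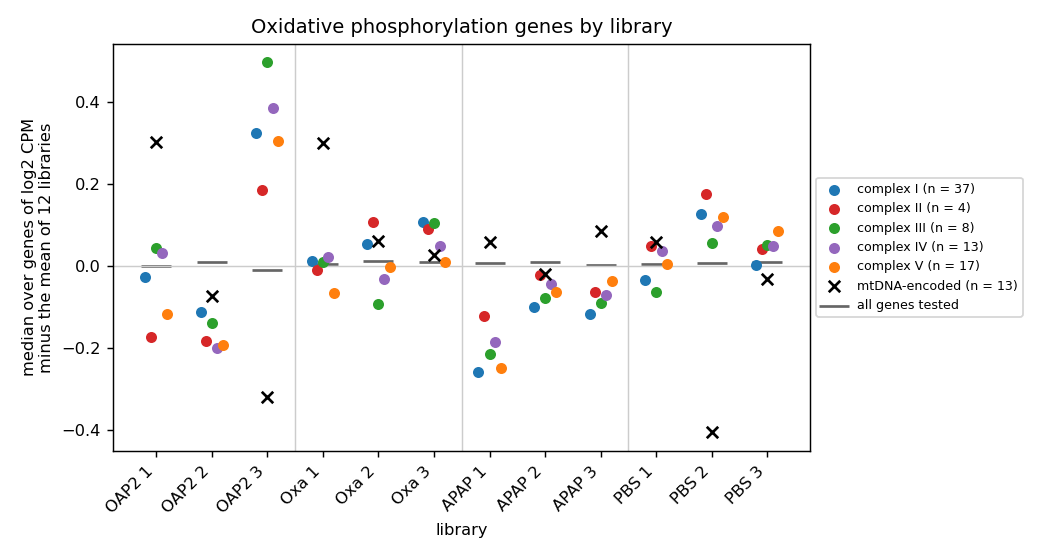
Median over the tested genes of each complex of the log2 CPM in a library minus the gene's mean over the 12 libraries (vertical axis), for each library (horizontal axis); grey bars are the same for all genes tested and crosses for the 13 subunits encoded in mitochondrial DNA. Nuclear subunits of all 5 complexes lie highest in OAP2 3, at 0.19 to 0.50 (complex II close to PBS 2, at 0.17), where the mitochondrially encoded subunits lie at -0.32.

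The largest steps in OAP2 3 were in small subunits. Cox6a2 was 2.29-fold, Uqcrq and Ndufb1-ps were each 1.96-fold and Atp5e, the epsilon subunit of the ATP synthase, 1.95-fold the mean FPKM of OAP2 1 and 2. Atp5e had 17.6, 16.3 and 33.0 FPKM in OAP2, where all other libraries of the study lay between 15.7 and 22.9. At the other end were Ndufs1 (0.96-fold) and Ndufv1 (1.01-fold), 2 core subunits of complex I that carry iron-sulphur clusters or the flavin, together with Sdha (1.00-fold) and Cox6a1 (0.98-fold). Cox6a1 had 213, 189 and 198 FPKM in OAP2 1 to 3, so the third library lay between the others. The summed FPKM of complex I was 871, 779 and 1101 in OAP2, 892, 893 and 959 in Oxa, 709, 783 and 810 in APAP, and 844, 973 and 891 in PBS, with OAP2 3 highest. The sums of complexes III, IV and V were likewise highest in OAP2 3, while that of complex II was highest in PBS 2 (134) and stood at 125 in OAP2 3. The 13 subunits encoded in mitochondrial DNA were all lower in OAP2 3 than in OAP2 1 and 2, with a median difference of -0.44 on the log2 scale. By promoter, the median step was 0.61 for 17 genes with the ETS letters and 0.43 for 47 without, and 0.43 for 10 genes with the NRF1 letters and 0.45 for 54 without. It was 0.42 for 10 genes with the YY1 letters and 0.45 for 54 without, and 0.42 for 26 genes with the SP1 letters and 0.50 for 38 without.

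The size of the step went with transcript length, taken as the longest principal transcript in GENCODE M21 and known for 78 of the 79 genes. The subunit transcripts were short, with a median of 850 nucleotides against 2998 for all genes tested. Among 46 subunit genes under 1000 nucleotides the median step in OAP2 3 was 0.52, among 24 genes of 1000 to 2000 nucleotides it was 0.36, among 6 genes of 2000 to 4000 it was 0.17, and in the 2 genes above 4000 it was 0.43. For tested genes other than these the medians were 0.41 under 1000 (570 genes), 0.15 from 1000 to 2000 (2101 genes), -0.03 from 2000 to 4000 (4109 genes) and -0.15 above (3216 genes). Across the 78 subunit genes the step and the length had a Spearman correlation of -0.47, and across 10074 genes of -0.44. These correlations run over genes of the same libraries, which are no independent replicates. For the difference between APAP and PBS, the medians of the subunit genes over the same 4 length classes, short to long, were -0.21, -0.15, -0.06 and -0.21, the last from 2 genes. Those of the other genes were -0.16, -0.08, -0.01 and 0.06. The part of transcript length in these differences was not tested further.

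**Figure D2:**
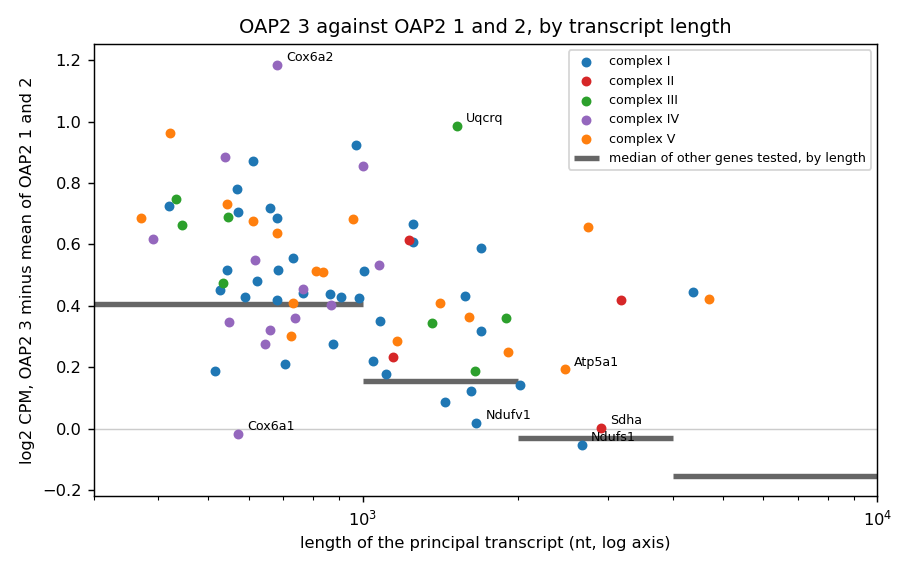
Log2 CPM in OAP2 3 minus the mean of OAP2 1 and OAP2 2 (vertical axis) against the length of the principal transcript in nucleotides (horizontal log axis) for 78 subunit genes, coloured by complex; grey bars are the medians of the other genes tested within 4 length ranges. Subunit genes under 1000 nucleotides have a median of 0.52, beside 0.41 for other genes of that length.

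OAP2 against PBS addresses the change with OAP2. Of 79 subunit genes, 0 passed the test in edgeR (adjusted p below 0.05 over all genes, here termed called), where 5.25% of all genes did. At an unadjusted p below 0.05 there were 5 (6.33%), beside 20.8% of all genes. DESeq2 called 3 (10.5% of all genes) and limma on log2(FPKM + 1) called 1 (4.64%). Log2 fold changes ran from -0.40 to 0.61 with a median of -0.01, and 40 of the 79 were negative, against 50.1% of all genes. The median was 0.06 in complex I, -0.23 in complex II, 0.14 in complex III, -0.04 in complex IV and -0.05 in complex V. The 3 libraries of the groups did not overlap for 5 genes. Of these 3 were higher in OAP2 (Ndufb3, Ndufb10 and Ndufv3), beside 8.78% of all genes, and 2 lower (Sdha and Ndufb2), beside 9.94%.

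Complex II gave the lowest median. Sdha, its flavoprotein, oxidizes succinate (chromosome 13, 74322254 to 74350280 of GRCm38, the build of all positions here). It had 29.2, 30.3 and 29.8 FPKM in OAP2, against 37.7, 36.5 and 34.6 FPKM in PBS. Every OAP2 library was lower than every PBS library, and OAP2 3 was no exception. The log2 difference was -0.27 ± 0.08 (SE) with an adjusted p of 0.0653 in edgeR, 0.0398 with limma on log2(FPKM + 1), 0.0120 in DESeq2 and 0.0334 in edgeR without PBS 2. It was above the threshold under other alternatives, at 0.353 with only the 6 libraries compared, 0.125 with no filter on low values, and 0.207, 0.181 and 0.121 without PBS 1, OAP2 1 or OAP2 2. Over all alternatives run it lay between 0.0120 and 0.353. A processed pseudogene, Gm16125, overlaps Sdha on the other strand, and the strand used in counting is not given. Ndufv3, an accessory subunit of complex I at its NADH-oxidizing end, had 4.11, 4.11 and 5.54 FPKM in OAP2, against 3.02, 3.43 and 2.64 FPKM in PBS (0.61 ± 0.18, edgeR adjusted p = 0.0704). Ndufb10, an accessory subunit of the membrane arm of complex I, had 15.2, 13.9 and 21.4 FPKM in OAP2, against 11.1, 13.0 and 9.93 FPKM in PBS (0.58 ± 0.17, edgeR adjusted p = 0.0684). In both the OAP2 libraries lay above all PBS libraries, and both were called without PBS 2 (edgeR adjusted p = 0.0236 for Ndufv3 and 0.0182 for Ndufb10). With each library left out in turn, that p reached 0.187 for Ndufv3 and 0.182 for Ndufb10. Ndufv3 and Ndufb10, like Sdhb, Sdhc, Cox7b, Ndufa8, Atp5e and Atp5o elsewhere, were singled out after their values were seen.

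OAP2 3 was left out for standing high in these same genes, which by itself lowers most of their estimates in each comparison of OAP2. Without OAP2 3 the estimates of the subunit genes against PBS were mostly negative. The median was then -0.17 and 67 of 79 were negative, with medians of -0.12 in complex I, -0.27 in II, -0.06 in III, -0.16 in IV and -0.24 in V, where all 17 genes were negative. Of 570 other tested genes under 1000 nucleotides, 81.9% were also higher in OAP2 3 than in the mean of OAP2 1 and 2. Without OAP2 3, 2 subunit genes fell and 0 rose, beside 7.69% of all genes called. One was Sdhd, a membrane anchor of complex II and its most abundant gene (chromosome 9, 50596357 to 50603812), with 28.8, 25.0 and 41.0 FPKM in OAP2, against 35.8, 45.5 and 39.0 FPKM in PBS. OAP2 1 and 2 lay below all PBS libraries and OAP2 3 within them. The log2 difference was -0.56 (edgeR adjusted p = 0.0235) without OAP2 3 and -0.33 (0.268) with it. Of the remaining complex II genes, Sdhb, the iron-sulphur subunit, had 26.5, 22.1 and 28.4 FPKM in OAP2, against 26.2, 31.2 and 30.4 FPKM in PBS, and Sdhc, the second anchor, had 19.0, 19.3 and 25.5 FPKM in OAP2, against 19.7, 20.9 and 20.1 FPKM in PBS. Both overlapped between the groups (log2 differences of -0.18 and 0.08). The other gene called without OAP2 3 was Cox7b, a small subunit of complex IV, with 37.9, 34.1 and 64.9 FPKM in OAP2, against 41.4, 49.5 and 56.5 FPKM in PBS. Its log2 difference was -0.44 (edgeR adjusted p = 0.0344) without OAP2 3 and -0.09 (0.850) with it. Without PBS 2, and with OAP2 3 kept, 3 genes were called (Sdha, Ndufv3 and Ndufb10) beside 16.4% of all genes, and without both libraries 13 were called, 2 higher and 11 lower in OAP2, beside 23.6% of all genes. Among the 11 were Sdha and Sdhd of complex II and Atp5b, Atp5e, Atp5g2 and Atp5j of complex V, and the 2 were Ndufv3 and Ndufb10. With PBS 2 left out and OAP2 3 kept the subunit median was 0.05, and with both left out -0.15.

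**Figure D3:**
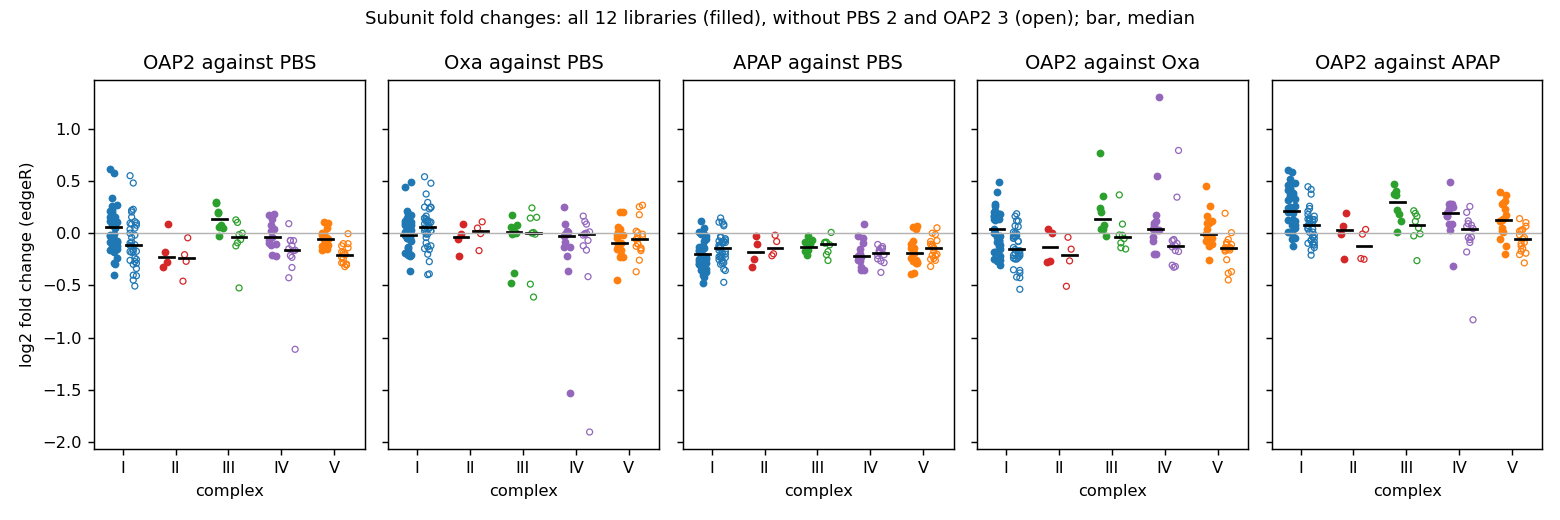
Log2 fold changes of the 79 tested subunit genes by complex (horizontal axis) in the 5 comparisons, from all 12 libraries (filled points) and without PBS 2 and OAP2 3 (open points); bars are medians. In OAP2 against PBS the medians of complexes I and III lie at 0.06 and 0.14 with all libraries and at -0.11 and -0.04 without both, and in APAP against PBS all 5 lie below 0 in both fits.

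For Oxa against PBS, 1 of 79 subunit genes rose and 1 fell, where 10.1% of all genes were called, 5.35% upwards and 4.76% downwards. The median of the 79 log2 fold changes was -0.02. Ndufb3, an accessory subunit of the membrane arm of complex I (chromosome 1, 58586384 to 58595964), had 27.5, 30.3 and 31.8 FPKM in Oxa, against 21.3, 21.1 and 21.9 FPKM in PBS. The groups did not overlap, with means of 29.9 ± 2.17 in Oxa and 21.4 ± 0.39 in PBS (SD, n = 3 each), and PBS 2 lay with the other controls. The gene rose 1.40-fold (0.49 ± 0.14 on the log2 scale, edgeR adjusted p = 0.0386). Its levels were 23.2, 22.6 and 31.0 FPKM in OAP2 and 19.4, 21.5 and 19.2 in APAP. The call ended without any one of Oxa 1, Oxa 2, Oxa 3, PBS 1 or PBS 3 (adjusted p from 0.0779 to 0.130).

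Cox6a2 (chromosome 7, 128205435 to 128206387) had 1.23, 1.19 and 0.84 FPKM in Oxa, against 3.47, 1.30 and 4.85 FPKM in PBS. Oxa lay below all PBS libraries, the nearest being PBS 2 with its red blood cell and neutrophil transcripts. The gene fell by 1.53 ± 0.45 on the log2 scale (edgeR adjusted p = 0.0493), and the difference was -1.902 without PBS 2 (0.00310). The call ended without any one of Oxa 1 to 3, PBS 1 or PBS 3 (adjusted p up to 0.175) and with limma on log2(FPKM + 1) (0.0851), and Itgad overlaps the gene on the other strand. Its levels were 1.72, 2.06 and 4.33 FPKM in OAP2 and 2.92, 3.13 and 3.87 in APAP, and the 8 muscle markers, of which 6 are in the table, were at or near 0 in all libraries. The groups did not overlap for 10 subunit genes, 4 higher in Oxa beside 14.5% of all genes and 6 lower beside 14.6%. Within complex V the largest F was that of Atp5mpl, a small subunit of its membrane part, with 11.99, 13.4 and 15.1 FPKM in Oxa, against 14.3, 20.3 and 20.95 FPKM in PBS (-0.44 ± 0.20, edgeR adjusted p = 0.172). In complex III it was that of Uqcrq, with 18.5, 17.1 and 23.0 FPKM in Oxa, against 24.0, 26.8 and 31.3 FPKM in PBS (-0.48 ± 0.23, edgeR adjusted p = 0.205). The Oxa and PBS libraries overlapped for Atp5mpl and not for Uqcrq. Without PBS 2 the median was 0.01 and 5 genes were called beside 25.5% of all genes. Ndufb3, Ndufa8 and Ndufa9, all accessory subunits of complex I, were then higher in Oxa, and Cox6a2 and Cox7a2l lower. Ndufa8 had 53.1, 54.4 and 55.1 FPKM in Oxa, against 43.1, 57.1 and 41.0 FPKM in PBS, so that PBS 2 alone of the controls lay above Oxa. With OAP2 3 left out as well, 9 genes were called beside 35.4% of all genes. OAP2 3 enters here through the shared estimate of the spread and the recomputed TMM factors.

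**Figure D4:**
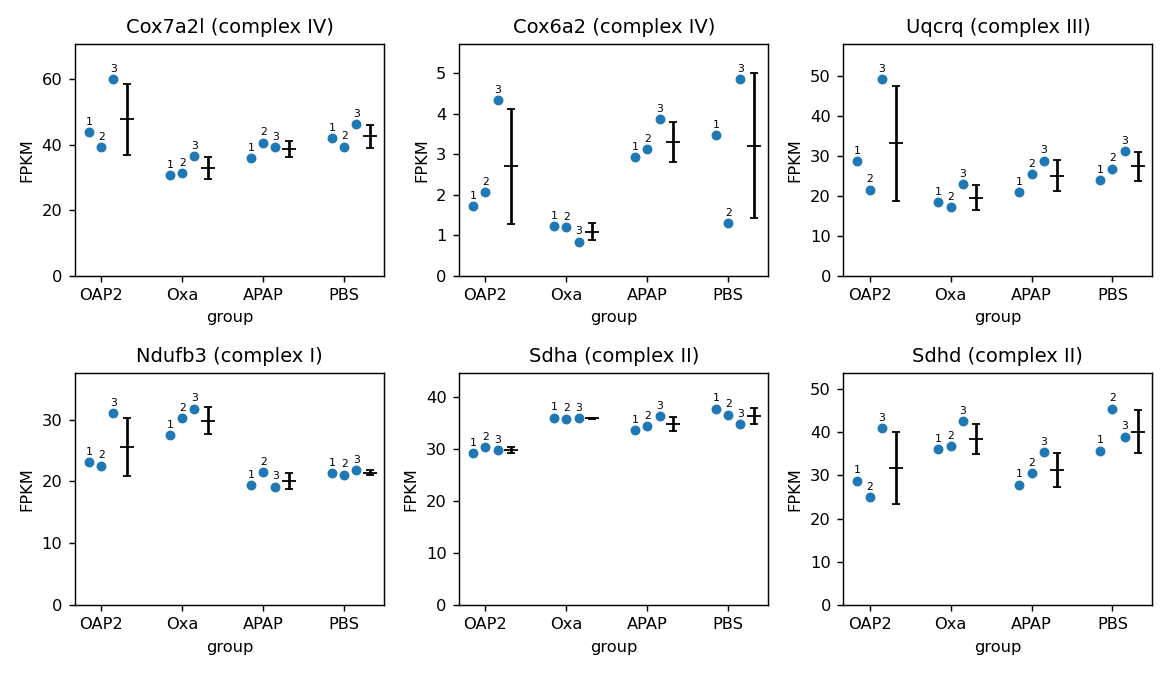
FPKM (vertical axis) of 6 subunit genes in each library, numbered 1 to 3 by replicate, for the 4 groups (horizontal axis); black marks are the mean ± SD of the 3 libraries. Sdha has a narrow spread in OAP2 at 29.2 to 30.3 FPKM, while Uqcrq and Sdhd are highest within OAP2 in replicate 3, at 49.2 and 41.0 FPKM.

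APAP against PBS gave low estimates without calls. Of 79 subunit genes 0 passed the test in edgeR, where 0.0166% of all genes did. At an unadjusted p below 0.05 there were 8 (10.1%), beside 9.16% of all genes. DESeq2 and limma each called 0 (0.806% and 0.0166% of all genes), as did edgeR without PBS 2 and OAP2 3 (0.598%). Of the 79 estimates, 72 were negative, against 50.9% of all genes, with a median of -0.17 against 0.00 for all genes. The groups did not overlap for 27 subunit genes, all lower in APAP, where 11.2% of all genes were lower and 4.67% higher in that way. Ndufb9 had 105, 123 and 120 FPKM in APAP, against 130, 177 and 150 FPKM in PBS (-0.35 ± 0.12, edgeR adjusted p = 0.410, and -0.23 without PBS 2). Uqcrc1 had 62.4, 67.3 and 69.5 FPKM in APAP, against 75.2, 74.8 and 79.2 FPKM in PBS (-0.16 ± 0.09, edgeR adjusted p = 0.632). In both genes every APAP library lay below every PBS library. The lowest estimates were those of the complex I accessory subunits Ndufb8, Ndufa7 and Ndufb5. Ndufb8 had 8.81, 9.93 and 10.9 FPKM in APAP, against 10.6, 18.6 and 13.3 FPKM in PBS, with PBS 2 highest (-0.48 ± 0.18, edgeR adjusted p = 0.465, and -0.23 without PBS 2). Ndufa7 had 9.19, 10.5 and 10.5 FPKM in APAP, against 12.6, 12.8 and 16.2 FPKM in PBS (-0.42 ± 0.15, edgeR adjusted p = 0.430, and -0.47 without PBS 2). Ndufa7 did not overlap between the groups and Ndufb8 did. These 3 genes were picked after their values were seen.

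The estimates were spread over all complexes, with medians of -0.20 in complex I, -0.18 in II, -0.13 in III, -0.22 in IV and -0.19 in V. Within complex I the 30 accessory subunits had a median of -0.24 and the 7 core subunits, which carry out electron transfer, one of -0.02. Within complex V the 9 subunits of the stalks and membrane part had a median of -0.27 and the 5 of the F1 head, which holds the catalytic sites, one of 0.04. The genes with positive estimates were Ndufv1, Cox6a2, Atp5a1, Atp5d, Ndufs1, Atp5b and Ndufv3, with the largest (0.12) in Ndufv1. The median stayed between -0.22 and -0.13 when each library was left out in turn, and was -0.16 without PBS 2. As given above, the median of other short transcripts was also negative. The core transcripts of complex I were 983 (Ndufs7) to 2661 (Ndufs1) nucleotides long, the accessory ones 419 (Ndufa1) to 4371 (Ndufb2). The role of a subunit was not separated from its transcript length in complex I or V.

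In OAP2 against Oxa, 2 of 79 subunit genes were higher and 1 was lower in OAP2 past the test, where 12.9% of all genes were called, 6.02% upwards and 6.91% downwards. Cox7a2l, which joins complexes III and IV into supercomplexes (chromosome 17, 83501918 to 83517330), had 43.9, 39.3 and 60.0 FPKM in OAP2, against 30.8, 31.2 and 36.6 FPKM in Oxa. All OAP2 libraries lay above all Oxa libraries, with means of 47.7 ± 10.9 in OAP2 and 32.9 ± 3.25 in Oxa (SD, n = 3 each). The gene was 1.46-fold higher in OAP2 (0.54 ± 0.14, edgeR adjusted p = 0.0198). Without OAP2 3 the log2 difference was 0.34 (0.0432), and without Oxa 1 or Oxa 2 the call ended (0.0805 and 0.0781). Its levels were 36.0, 40.7 and 39.3 FPKM in APAP and 42.0, 39.4 and 46.3 in PBS. Oxa had the lowest mean of the 4 groups and overlapped with APAP alone. Against PBS the difference was 0.18 ± 0.14 for OAP2 (edgeR adjusted p = 0.505) and -0.37 ± 0.14 for Oxa (0.102).

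Sdha was lower in OAP2, with 29.2, 30.3 and 29.8 FPKM, against 36.0, 35.8 and 35.9 FPKM in Oxa (-0.26 ± 0.08, edgeR adjusted p = 0.0432). Neither group spread by as much as the gap between them. The call ended when any one of the 6 libraries was left out (adjusted p from 0.0614 to 0.161, 0.0614 without OAP2 3) and with another scaling (0.0505 with relative log expression factors and 0.0724 with upper-quartile factors), with the log2 difference between -0.29 and -0.22. Levels in APAP were 33.6, 34.3 and 36.3 FPKM, all above OAP2 (OAP2 against APAP -0.25 ± 0.08, edgeR adjusted p = 0.168). The 3 differences of OAP2 share the same OAP2 libraries and are no separate evidence.

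Uqcrq, a small subunit of complex III that sits beside cytochrome b (chromosome 11, 53427922 to 53430831), had 28.7, 21.6 and 49.2 FPKM in OAP2, against 18.5, 17.1 and 23.0 FPKM in Oxa. It was 1.70-fold higher in OAP2 (0.77 ± 0.23, edgeR adjusted p = 0.0451), but the groups overlapped, and OAP2 3 held the highest value of all 12 libraries. Without OAP2 3 the difference was 0.37 (0.155). The call also ended without OAP2 1 or any one Oxa library (0.0633 to 0.157). In edgeR it was lost with total-count scaling (0.0519), no filter (0.143) and only the 6 libraries compared (0.0701), and kept with the replicate block (0.0206). It was lost with limma on log2(FPKM + 1) (adjusted p = 0.0973) and kept in DESeq2 (0.00814). For 6 subunit genes the groups did not overlap, 3 higher in OAP2 beside 15.6% of all genes and 3 lower beside 20.5%. Without OAP2 3 the median was -0.14, against 0.04 with it, and 6 genes were called beside 12.5% of all genes. Of these, 1 was higher (Cox7a2l), and Sdhd, Cox6c of complex IV, Ndufs6 and Ndufa13 of complex I and Atp5o of complex V were lower in OAP2. Atp5o, in the peripheral stalk of the ATP synthase, had 34.0, 30.4 and 45.7 FPKM in OAP2, against 42.9, 39.6 and 49.8 FPKM in Oxa, and antisense genes overlap it. PBS 2 is in neither of these groups and enters through the shared estimate of the spread and the recomputed TMM factors. With PBS 2 left out as well, 12 genes were called beside 28.5% of all genes.

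OAP2 against APAP gave 0 called subunit genes in edgeR, where 0.474% of all genes were called. At an unadjusted p below 0.05 there were 11 (13.9%), beside 15.25% of all genes. DESeq2 called 3 (Ndufv3 and Ndufb10 higher, Sdha lower) beside 4.20% of all genes, and limma 0 beside 0.532%. Relative to the mean of the 12 libraries, the median over all genes tested was -0.001, 0.010 and -0.011 in OAP2 and 0.008, 0.009 and 0.002 in APAP. Of the 79 subunit estimates 70 were positive, with a median of 0.19. With no overlap, 12 subunit genes were higher in OAP2, beside 14.6% of all genes, and 2 lower (Sdha and Ndufs1), beside 11.1%. Without OAP2 3 the median was 0.02 and 43 of 79 were positive, with 0 called beside 1.04% of all genes. Without OAP2 3 and PBS 2, 1 gene was higher (Ndufa8) and 2 were lower (Sdha and Atp5b) in OAP2, beside 11.9% of all genes. Here too PBS 2 enters through the shared estimate of the spread and the recomputed TMM factors.

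The genes around the machinery were read in lists chosen with earlier results of these data known. Over all genes, 10.1% were called in Oxa against PBS, 12.9% in OAP2 against Oxa and 5.25% in OAP2 against PBS. The calls in the lists were not tested against these shares. Of 13 subunits encoded in mitochondrial DNA, 13 had positive estimates in Oxa against PBS and 1 was called, mt-Nd2, a membrane subunit of complex I (0.54 ± 0.15, edgeR adjusted p = 0.0360, up to 0.134 without any one of Oxa 1 to 3, PBS 1 or PBS 3). Their median was 0.24, and 0.09 without PBS 2, the library in which they were lowest. Against PBS, 2 of these 13 were negative in APAP and 2 in OAP2, with medians of 0.18 and 0.09. Without PBS 2 those medians were 0.03 in APAP and -0.06 in OAP2. Of 11 tested respiratory chain genes outside the name patterns, 1 of which (Atp5md) is also among the 79, Etfdh was called. It passes electrons from fatty acid and amino acid oxidation to ubiquinone, and had 1.23, 1.30 and 1.02 FPKM in OAP2, 2.48, 2.03 and 2.42 in Oxa, and 1.35, 1.55 and 1.34 in PBS. Its log2 difference was 0.71 ± 0.14 for Oxa against PBS (edgeR adjusted p = 0.00907) and -0.96 ± 0.14 for OAP2 against Oxa (0.00123), with Oxa the high group in both, and both calls held without each library in turn. Among 22 tested assembly factors of complex IV, Cox17, a copper chaperone, had 7.18, 6.50 and 7.37 FPKM in OAP2, against 4.49, 4.85 and 4.95 FPKM in Oxa (0.56 ± 0.10, edgeR adjusted p = 0.00270), which held without each library in turn.

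The other calls in these lists ended when a single library was left out. Cox18, which inserts a complex IV subunit into the membrane, and Ndufaf1, a complex I assembly factor, were higher in OAP2 than in Oxa. Cox18 differed by 0.40 (edgeR adjusted p = 0.0387, lost without any one of OAP2 1 to 3, Oxa 1 or Oxa 3) and Ndufaf1, of 15 such factors tested, by 0.50 (0.0307, lost without any one library but OAP2 3). Atpaf2, which assembles the F1 head, was lower (-0.48, edgeR adjusted p = 0.00981, 0.0659 without Oxa 3), as was the transcription factor Yy1 (-0.31, 0.0241, lost without any one of OAP2 1 or Oxa 1 to 3). In Oxa against PBS the complex III assembly factor Uqcc1 (-0.35, edgeR adjusted p = 0.0467) and the citric acid cycle enzyme Suclg2 (-0.41, 0.0295) were lower, both lost without any one of Oxa 1 to 3, PBS 1 or PBS 3. The coactivator Ppargc1b was higher (0.92, edgeR adjusted p = 0.0398, lost without any one of Oxa 1 to 3 or PBS 3). Gabpa, an ETS factor of the promoters above, was lower in OAP2 than in PBS (-0.35, edgeR adjusted p = 0.0366, lost without any one of OAP2 1, OAP2 2, PBS 1 or PBS 3). It overlaps the subunit gene Atp5j on the other strand. The adjusted p after such an omission reached at most 0.162. Uqcc1 and Atpaf2 stand in a list of 13 tested genes, Gabpa, Ppargc1b and Yy1 in another of 13 and Suclg2 in one of 17. In edgeR, APAP against PBS and OAP2 against APAP had 0 calls in these lists, beside 0.0166% and 0.474% of all genes.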

How the data were processed

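Per the labels' protocols, Trizol RNA was captured on oligo(dT) and made into dUTP libraries that keep the strand, read from both ends. Tools listed in the submitters' processing notes, with no role, include StringTie 2.1.6, HISAT2 2.2.1 and cutadapt 1.9. The deposited table gives FPKM, scaled by the authors to length and depth, and whole-number columns headed count per the file headers, which track FPKM closely and were taken as estimated counts (expected counts). The notes list mm9, but 67 of the 83 subunit genes have the same position in GENCODE M21 (GRCm38), so positions are in GRCm38. FPKM gave levels. The counts were fitted in edgeR 4.0.16 (R 4.3.3) with TMM factors, quasi-likelihood, 1 mean per group over all 12 libraries, 2-sided, Benjamini-Hochberg over 12036 genes. The SE was taken as the size of the log2 difference over the root of F. Log2 CPM used a prior count of 2. limma 3.58.1 on log2 FPKM and DESeq2 1.42.0 were alternatives, with other scalings and filters, a fit of 6 libraries, a replicate block and each library left out; leaving out PBS 2 and OAP2 3 together was chosen after seeing the data. The fit was tested on simulated counts drawn independently for each gene, with no shifted library. That test cannot speak to libraries such as OAP2 3 and PBS 2. Genes were named as those called, the most abundant and the largest F per complex, alternative subunits and those next to the filter, besides those marked as singled out. Members and lists were chosen with earlier results of these data known. Depth of 64071751 to 71500487 counts per library limits precision for counting error only.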

Additional observations from a re-analysis of the deposited data

How the results depend on the processing

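Counts of called subunit genes moved with settings. In OAP2 against PBS (0 called), limma on log2(FPKM + 1) or log2(FPKM + 0.1) and a filter at FPKM 5 each gave 1 (4.64%, 4.56% and 7.32% of all genes), DESeq2 gave 3, and leaving out PBS 2 and OAP2 3 together gave 13. In Oxa against PBS (2 called), total-count scaling, both limma fits and the FPKM 5 filter each gave 1 (10.4%, 8.85%, 8.67% and 12.5% of all genes), no filter on low values and a fit of only the 6 libraries compared each gave 0 (2.43% and 4.35%), and leaving out both libraries gave 9. In OAP2 against Oxa (3 called), no filter gave 0 (3.56% of all genes), the fit of 6 libraries gave 1 (15.6%), and leaving out both libraries gave 12. In OAP2 against APAP (0 called), DESeq2 gave 3 and leaving out both libraries gave 3. In APAP against PBS every alternative run gave 0. With each library left out in turn the counts ran from 0 to 3 in OAP2 against PBS, from 0 to 5 in Oxa against PBS and from 0 to 6 in OAP2 against Oxa, and were 0 in both other comparisons. Between libraries of the same replicate number, deviations from the group mean had correlations from -0.152 to 0.155 (18 pairs). Pairs of different numbers were not compared, so this cannot decide whether the replicate number pairs the libraries. With the replicate number as a replicate block, 0 subunit genes were called in Oxa against PBS (9.11% of all genes), 2 in OAP2 against Oxa (11.8%) and 0 in the other 3 comparisons. Over all genes, 632 calls in OAP2 against PBS became 360 with no filter, 38 with the 6 libraries compared, 1267 in DESeq2, 252 to 1976 (without PBS 2) with single libraries left out and 2838 without both. In Oxa against PBS, 1217 became 701, 523, 2015, 452 (without Oxa 2) to 3066 (without PBS 2) and 4258 under the same settings. In OAP2 against Oxa, 1557 became 1026 with no filter, 875 without OAP2 1, 776, 672 and 891 without Oxa 1, Oxa 2 or Oxa 3, and 3426 without both. In OAP2 against APAP, 57 became 4 with no filter, 286 with the 6 libraries, 30 with the block, 506 in DESeq2, 0 (without APAP 2) to 125 (without OAP2 3) with single libraries left out and 1438 without both. In APAP against PBS, 2 became 0 with no filter or the 6 libraries, 0 to 3 with single libraries left out, 3 with the block, 72 without both and 97 in DESeq2. A left-out library that is in neither group of a comparison enters through the shared estimate of the spread and the recomputed TMM factors. Other causes of these moves were not tested, apart from the fewer libraries or genes that some settings hold by construction. The median over subunit genes, with each library left out in turn, ran from -0.17 to 0.11 in OAP2 against PBS, from -0.06 to 0.01 in Oxa against PBS, from -0.14 to 0.13 in OAP2 against Oxa and from 0.02 to 0.26 in OAP2 against APAP. Ndufb3 and Cox6a2 in Oxa against PBS, and Cox7a2l, Sdha and Uqcrq in OAP2 against Oxa, kept their direction under every alternative that tested them. Genes called only under an alternative, such as Cox7b, are not covered by this. Depth limits most the genes near the filter, such as Cox6a2.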
